A study of Mus musculus with 6 samples.

Results

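Genes of the MHC class I molecules and of their peptide supply were examined in cultured murine cancer cells that carry the rat her-2/neu oncogene, untreated or given withaferin A, a withanolide from the plant Withania somnifera. Members were the probes whose platform annotation named H2-K1, H2-D1 or H2-L, a gene beginning with H2-Q, H2-T or H2-M and a digit, or B2m, Tap1, Tap2, Tapbp, Tapbpl, Psmb8, Psmb9, Psmb10, Psme1, Psme2, Erap1, Nlrc5 or Cd1d1. They comprised 71 probes of 40 genes, out of 45281 probes and 19057 genes on the Illumina mouse bead array. No probe was annotated as H2-L. The untreated group held 3 arrays, and the other group 3 arrays of cells given 8 µM withaferin A for 6 h. All cells were of the same her-2/neu expressing line, in medium with 20% serum, at passages 2, 3 and 4. The labels tie no passage to a replicate number, name no vehicle for the untreated cells and state no mouse strain or tissue. Apart from the passages nothing says that the replicates were separate cultures, and the p-values then reflect only how far arrays of a group differ, which may be technical.

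MHC class I molecules display short peptides from inside a cell to CD8 T cells. A polymorphic heavy chain pairs with the light chain beta-2-microglobulin, and peptides cut by the proteasome are pumped into the endoplasmic reticulum by the transporter TAP, trimmed there, and loaded with the help of tapasin. Interferon gamma raises the whole pathway, exchanging the catalytic subunits of the constitutive proteasome for those of the immunoproteasome, and NLRC5 is the transactivator of class I promoters. The heavy chain genes are paralogs of high similarity that differ in number and sequence between mouse strains, so probes of H2-K1, H2-D1, H2-Q and H2-T genes may share signal, and values of single heavy chain genes are uncertain. Probe sequences were not used here. In RefSeq's gene table of GRCm38.p6, 32 of the 40 genes lie on chromosome 17, which holds the mouse MHC, and H2-Q5 and H2-T10 are annotated as transcribed pseudogenes.

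Promoter windows run from 250 bases before to 50 after the start of a gene's first listed RefSeq entry (GRCm38.p6). Windows are printed for the 2 called genes with an entry, Psmb10 and H2-M3, and for H2-K1 and B2m, which were not called. They are given 5′ to 3′ on the gene's strand, in lower case, with matches to 4 motifs in capitals. The motifs, searched on both strands, were the core of the interferon-stimulated response element (GAAA, any 2 bases, then GAAA), an NF-kB type site (GGG, any 3 bases, T, any 1 base, then CC), the CCAAT box, and TGACG, the core of the X2 box of class I promoters. Matches of different motifs did not overlap in the printed windows, and H2-K1 had 2 overlapping NF-kB type matches, 1 base apart. For H2-K1 the gene table puts the 5′ end at 34000619, so its printed window lies inside the annotated gene. Any other start of a gene was not searched.
Psmb10, chr8:105938343-105938642, minus strand: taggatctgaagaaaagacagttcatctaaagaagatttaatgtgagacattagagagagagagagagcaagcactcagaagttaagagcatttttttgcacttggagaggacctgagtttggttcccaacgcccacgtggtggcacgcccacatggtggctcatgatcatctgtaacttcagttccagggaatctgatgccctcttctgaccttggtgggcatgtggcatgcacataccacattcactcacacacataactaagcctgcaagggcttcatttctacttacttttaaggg
H2-M3, chr17:37269984-37270283, plus strand: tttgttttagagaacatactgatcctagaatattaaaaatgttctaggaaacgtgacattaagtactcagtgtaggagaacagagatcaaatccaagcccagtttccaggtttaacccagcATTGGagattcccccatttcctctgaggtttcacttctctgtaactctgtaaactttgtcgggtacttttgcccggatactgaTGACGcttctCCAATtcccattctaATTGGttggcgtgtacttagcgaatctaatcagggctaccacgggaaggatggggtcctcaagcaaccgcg
H2-K1, chr17:34000298-34000597, minus strand: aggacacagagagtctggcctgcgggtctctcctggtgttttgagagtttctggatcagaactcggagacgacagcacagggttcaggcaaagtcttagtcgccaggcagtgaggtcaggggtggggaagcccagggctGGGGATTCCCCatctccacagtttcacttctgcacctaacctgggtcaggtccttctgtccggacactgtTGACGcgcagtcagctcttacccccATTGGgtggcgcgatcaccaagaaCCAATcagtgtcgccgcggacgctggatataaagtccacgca
B2m, chr2:122147437-122147736, plus strand: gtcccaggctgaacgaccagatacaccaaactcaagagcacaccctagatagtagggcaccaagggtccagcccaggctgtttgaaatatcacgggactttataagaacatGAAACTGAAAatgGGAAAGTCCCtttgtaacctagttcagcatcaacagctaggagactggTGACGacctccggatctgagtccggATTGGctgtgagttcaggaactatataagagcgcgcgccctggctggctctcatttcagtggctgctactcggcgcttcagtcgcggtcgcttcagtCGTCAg
The Psmb10 window held none of the 4 motifs in these letters. The H2-M3 window held the X2 core and 3 CCAAT boxes. The H2-K1 window held the NF-kB type matches, the X2 core and 2 CCAAT boxes, and that of B2m an interferon response core, an NF-kB type site, 2 X2 cores and a CCAAT box. Promoter entries were found for 30 of the 40 genes, 15 of them with a tested probe. Of those 15 windows, 7 held an NF-kB type site, against 17.2% of all 27025 promoters of the table, 9 an X2 core (21.0% of all), 11 a CCAAT box (37.9% of all) and 3 the interferon response core (3.49% of all). The windows of Tap1 and Psmb9, which start on opposite strands of chromosome 17, share 275 bases and are thus not independent. The 7 windows with an NF-kB type site were those of B2m, Tap1, Psmb9 and the paralogs H2-K1, H2-D1, H2-Q6 and H2-Q7. Heavy chain paralogs recur in the X2 and CCAAT counts too, so these counts are not of independent promoters.

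Of the 71 probes, 38 were tested, for 23 genes. A probe was tested where its detection p, the chance that a negative control is as bright, was under 0.05 on at least 3 of the 6 arrays. Values are log2 intensities after background correction and quantile normalization, changes are withaferin A minus untreated, and a change was called at an adjusted p under 0.05 in limma over all 19077 tested probes. In all, 35 of the 38 were detected on all 6 arrays. Tap1 and Psmb9 were detected on all 3 untreated arrays and 1 withaferin A array, and H2-M10.1 on no untreated and all 3 withaferin A arrays, so these passed through the group where they are brighter. Genes with no tested probe numbered 17, namely H2-M1, H2-M2, H2-M5, H2-M9, H2-M11, H2-M10.2, H2-M10.3, H2-M10.4, H2-M10.5, H2-M10.6, H2-Q2, H2-Q10, H2-T3, H2-T18, H2-T22, H2-T24 and Erap1. The raw intensities of untested member probes lay between 52.6 and 103.4, and 28 member probes were detected on no array. Erap1, the aminopeptidase that trims peptides in the endoplasmic reticulum, had 3 probes, of which 1 was detected on 2 untreated arrays and on no withaferin A array.

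After withaferin A, transcripts of 3 genes of the pathway fell about 2-fold: Psmb10, an immunoproteasome catalytic subunit, H2-M3, a non-classical heavy chain, and Tapbpl, a peptide editor related to tapasin. The heavy chains H2-K1 and H2-D1 and the light chain B2m, which make up the classical class I molecule, had smaller changes that did not pass. Of the 38 tested probes, 4 were called lower (10.5%, against a background of 3.34% of all tested probes) and 0 higher (background 2.55%, and 5.90% in either direction). Over genes, each taken by its brightest tested probe, 3 of 23 were called (13%, background 6.83% in either direction and 4.02% lower), and 21 of 23 had negative changes (background 49.3%). Negative changes were seen at 34 of the 38 probes (89.5%), against 48.3% of all tested probes. The untreated arrays all lay above the withaferin A arrays at 15 member probes (39.5%, background 14.2%) and all below at 2 (background 14.9%). The 15 include Psmb9, the 2 include H2-M10.1, and Tap1 and Psmb9 are among the negative changes. These 3 genes passed the detection filter through the group where they are brighter, and no count was made without them. The median change was -0.34 over member probes and 0.01 over all tested probes. The count of called probes was 0 on leaving out any 1 of 4 arrays (untreated 1 and 3, withaferin A 1 and 2) or with every probe tested, and 3 and 5 without untreated array 2 and withaferin A array 3. These counts are a description and not of independent items, since 11 genes had several tested probes, and paralogs may share signal. Withaferin A array 2 held the lowest of the 6 values at 32 of the 38 probes, against 21.4% of all tested probes. The median over the 23 genes, -0.34, was -0.22 without that array.

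**Figure D1:**
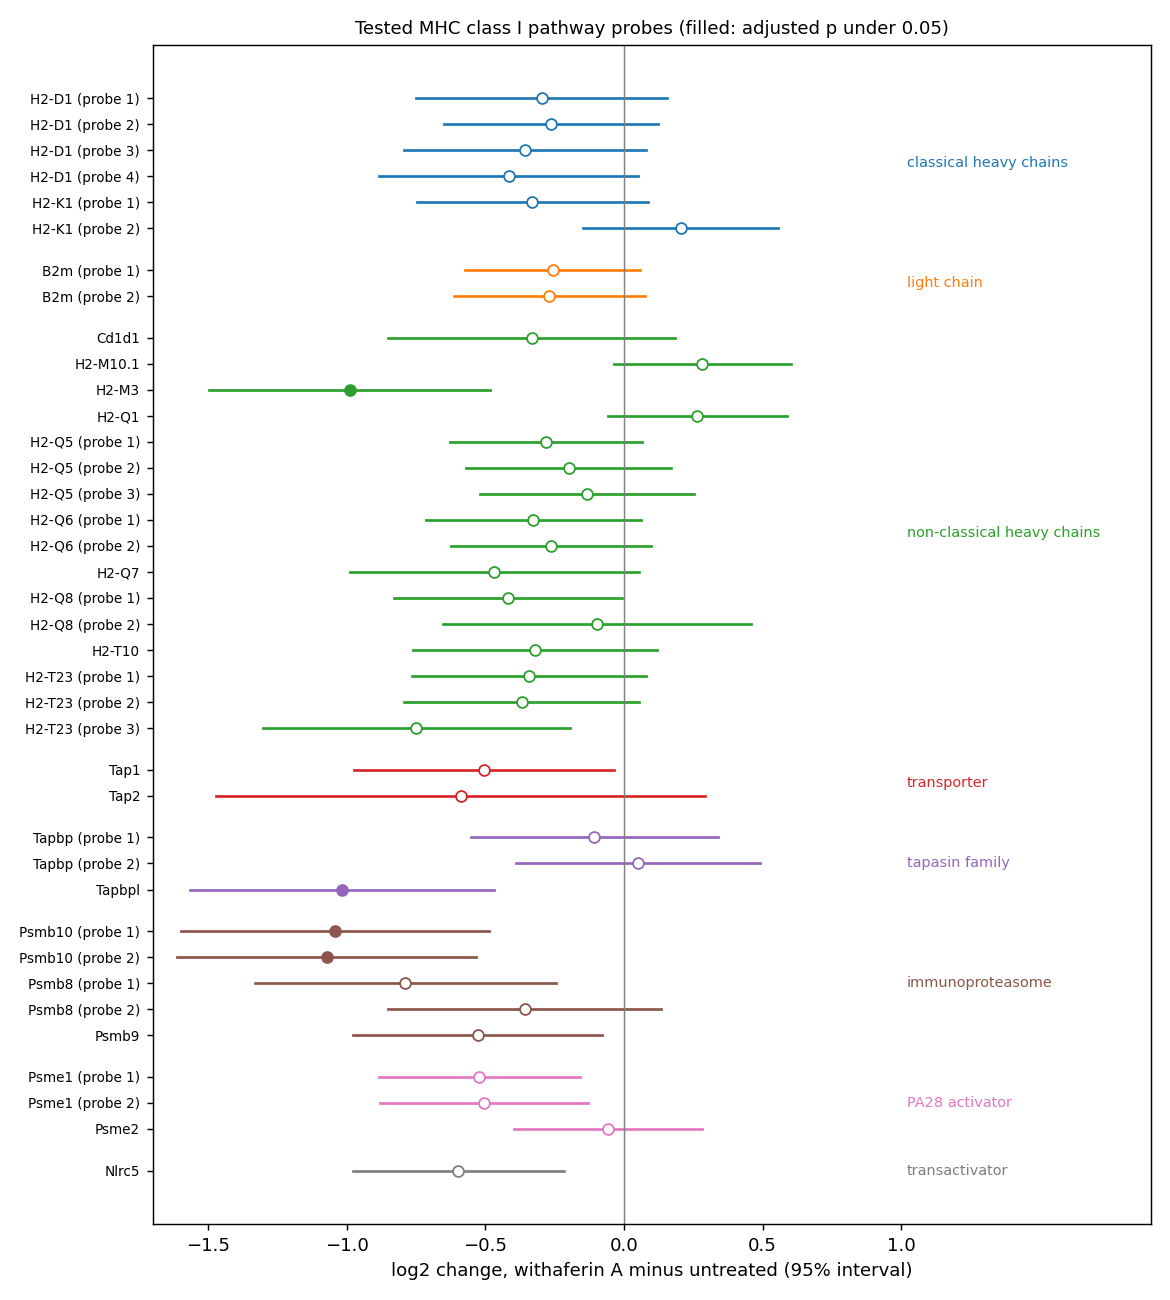
Log2 change (withaferin A minus untreated) of each tested probe, with its limma 95% interval, grouped and coloured by role; filled circles mark an adjusted p under 0.05, and probes of a gene are numbered from the brightest. The filled circles are Psmb10 (both probes), H2-M3 and Tapbpl, between -1.07 and -0.99, and most other intervals cross 0.

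The classical heavy chains bind peptide for CD8 T cells. The brightest H2-K1 probe had values of 10.89, 10.79 and 10.65 untreated and of 10.74, 10.12 and 10.48 with withaferin A, each given here and below for arrays 1, 2 and 3. Withaferin A array 1 thus lay above untreated array 3, and the groups overlapped. The change was -0.33 (SE 0.19, adjusted p = 0.309), with a 95% interval from -0.75 to 0.09, and -0.17 without withaferin A array 2. A much dimmer H2-K1 probe had a change of 0.20 (adjusted p = 0.459). It read 5.11 to 5.60 over the 6 arrays, with raw intensities of 89.7 to 105.6, close to those of untested member probes. Another H2-K1 probe was detected on 2 untreated arrays only and was not tested. The tested probes of H2-K1 thus differ in sign, with the positive one dim and neither called. H2-D1 had 4 tested probes, with changes of -0.30, -0.26, -0.36 and -0.42 from the brightest to the dimmest and adjusted p between 0.256 and 0.403. The change of the brightest was -0.11 without untreated array 2. Its dimmest probe, that of smallest p among the classical heavy chains, read 7.89, 8.11 and 7.37 untreated and 7.48, 7.18 and 7.47 with withaferin A. Untreated array 3 lay below the 2 higher withaferin A arrays, and the groups overlapped at all 4 probes. The interval of that probe was -0.88 to 0.05, so a fall of up to 1.85-fold lies within it. All 6 probes of the classical heavy chains were thus without a call.

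B2m encodes the light chain shared by all class I molecules. Its brightest probe read 14.30, 14.23 and 14.22 untreated and 14.03, 13.92 and 14.02 with withaferin A, and its other tested probe 14.19, 14.28 and 14.27 against 14.05, 13.78 and 14.10. At both probes every withaferin A array lay below every untreated array. The changes were -0.26 (SE 0.14, adjusted p = 0.294) and -0.27 (SE 0.15, adjusted p = 0.312) and did not pass. The intervals, -0.57 to 0.06 and -0.61 to 0.07, put the largest fall they allow at 1.49-fold and 1.53-fold. Another B2m probe was detected on no array.

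Non-classical heavy chains have restricted roles. H2-M3 presents N-formylated peptides, as found in bacteria and mitochondria, to T cells. Its probe read 8.58, 8.59 and 8.35 untreated and 7.80, 6.99 and 7.76 with withaferin A. The groups did not overlap, and withaferin A array 2 stood lowest. The change was -0.99 (SE 0.23, 1.99-fold lower, adjusted p = 0.0360), with an interval from 1.40-fold to 2.82-fold lower. Without withaferin A array 2 the change was -0.72 and not called (adjusted p = 0.0746). The H2-M3 call was also lost on leaving out withaferin A array 1 or any untreated array, and where all probes were tested whatever their detection (adjusted p = 0.131).

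H2-T23 encodes Qa-1, which presents leader peptides of other class I chains to NK cell receptors. Its 3 probes had changes of -0.34, -0.37 and -0.75. The dimmest of them read 8.57, 8.78 and 8.79 untreated and 7.94, 7.44 and 8.50 with withaferin A, with no overlap, and missed the threshold (adjusted p = 0.104). Without withaferin A array 3 it was called (change -1.02, adjusted p = 0.0191), and without withaferin A array 2 its change was -0.49. Cd1d1, the CD1d chain that presents lipids to NKT cells, had a change of -0.33 (adjusted p = 0.412), with overlapping groups, and of -0.09 without untreated array 3. H2-Q6, H2-Q7 and H2-Q8, genes of the Qa-2 region, had changes from -0.47 (H2-Q7) to -0.10 (the dimmer H2-Q8 probe). The brightest H2-Q8 probe had an unadjusted interval below 0 (-0.83 to -0.01, adjusted p = 0.198). The probes of the pseudogenes H2-Q5 and H2-T10 had changes from -0.32 to -0.13, and cross-hybridization with expressed paralogs was not tested. H2-Q1 and H2-M10.1 were the non-classical genes with positive changes, 0.26 (adjusted p = 0.291) and 0.28 (adjusted p = 0.258). Both were dim, reading 5.10 to 5.53 and 4.73 to 5.13 over the 6 arrays, and H2-M10.1 was not well above background on any untreated array. In all, 1 of 16 non-classical probes was called, a share near the 5.90% of all tested probes.

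**Figure D2:**
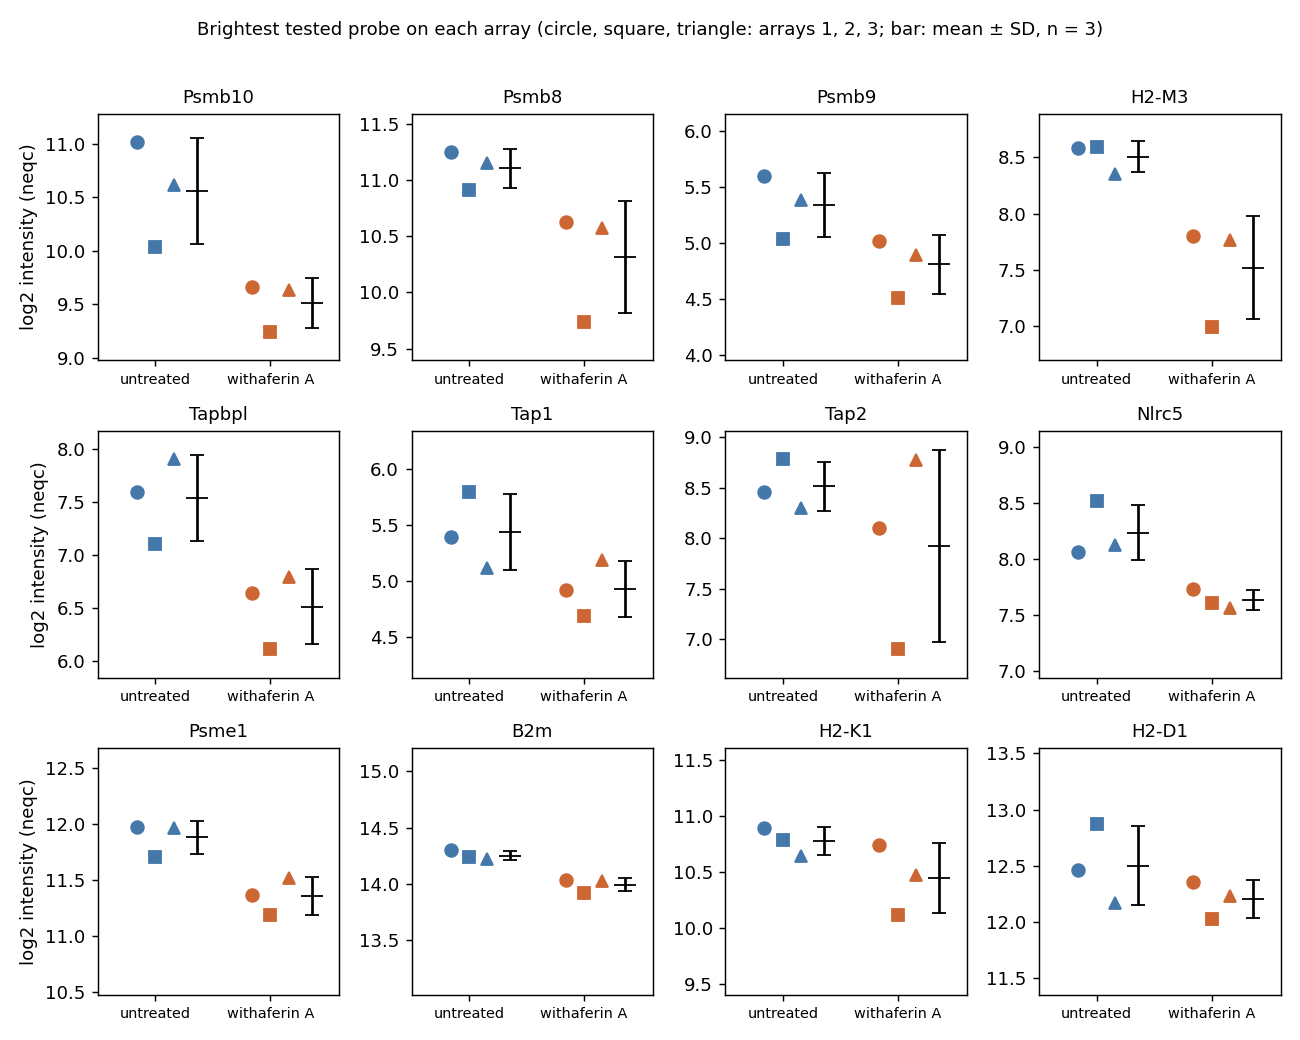
Log2 intensity on each of the 6 arrays for the brightest tested probe of 12 genes, with untreated arrays in blue, withaferin A arrays in orange, and mean ± SD (n = 3) as bars; the vertical axes have the same kind of scale but different ranges. The groups are apart for Psmb10, Psmb8, Psmb9, H2-M3, Tapbpl, Nlrc5, Psme1 and B2m and overlap for Tap1, Tap2, H2-K1 and H2-D1, and withaferin A array 2 (square) is the lowest value except for Nlrc5.

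TAP, a dimer of the products of Tap1 and Tap2, carries peptides from the cytosol into the endoplasmic reticulum. Tap1 read 5.39, 5.79 and 5.12 untreated and 4.92, 4.69 and 5.18 with withaferin A. Withaferin A array 3 lay above untreated array 3, and the change of -0.50 (SE 0.21) did not pass (adjusted p = 0.179). Tap2 read 8.45, 8.78 and 8.30 untreated and 8.10, 6.90 and 8.77 with withaferin A, where a single array carried most of the difference. Its change of -0.59 (SE 0.39, adjusted p = 0.392) was -0.08 without withaferin A array 2. Neither transporter gene was called.

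Tapasin, encoded by Tapbp, bridges the class I heavy chain to TAP, whereas the tapasin-related protein TAPBPR, encoded by Tapbpl, edits the bound peptides outside that complex. Tapbpl read 7.60, 7.10 and 7.90 untreated and 6.64, 6.11 and 6.79 with withaferin A. Every withaferin A array lay below every untreated array. The change was -1.02 (SE 0.24, 2.02-fold lower, interval 1.38-fold to 2.96-fold, adjusted p = 0.0424). The Tapbpl call was lost on leaving out any 1 of the same 4 arrays, without background correction (change -0.71, adjusted p = 0.0639), and where all probes were tested whatever their detection (adjusted p = 0.156). Another 2 Tapbpl probes were detected on 1 and 0 arrays and gave no second measurement. The Tapbp probes had changes of -0.11 (adjusted p = 0.789) and 0.05 (adjusted p = 0.904), whose intervals were -0.55 to 0.34 and -0.39 to 0.49. The sign of the dimmer one turned negative without normalization between arrays (-0.24) or with median scaling (-0.20).

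The immunoproteasome replaces each catalytic subunit of the constitutive proteasome with an interferon-inducible one, the products of Psmb8, Psmb9 and Psmb10. The brightest Psmb10 probe read 11.02, 10.03 and 10.62 untreated and 9.66, 9.24 and 9.64 with withaferin A. The other read 10.78, 9.79 and 10.48 untreated and 9.43, 9.15 and 9.26 with withaferin A. At both, the lowest untreated array, array 2, was above the highest withaferin A array. The falls were of 2.06-fold (log2 change -1.04, SE 0.25, adjusted p = 0.0409) and 2.10-fold (log2 change -1.07, SE 0.24, adjusted p = 0.0336), with intervals of 1.40-fold to 3.02-fold and 1.45-fold to 3.06-fold. Both calls were lost on leaving out any 1 of those same 4 arrays and where all probes were tested (adjusted p = 0.155 and 0.135), and that of the brightest probe without background correction (adjusted p = 0.0564).

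Psmb8, the chymotrypsin-like subunit LMP7, read 11.25, 10.91 and 11.15 untreated and 10.63, 9.74 and 10.58 with withaferin A. The groups did not overlap, but the change of -0.79 (SE 0.24) missed the threshold (adjusted p = 0.0871). It was -0.50 without withaferin A array 2. A dimmer Psmb8 probe had a change of -0.36 (adjusted p = 0.350) with overlapping groups. Psmb9, the subunit LMP2, read 5.60, 5.03 and 5.39 untreated and 5.02, 4.52 and 4.90 with withaferin A. Untreated array 2 lay just above withaferin A array 1, the change was -0.53 (SE 0.20, adjusted p = 0.147), and the gene was not detected on 2 of the withaferin A arrays. Of the 5 immunoproteasome probes the 2 of Psmb10 were called (background 3.34% lower).

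Psme1 and Psme2 encode the alpha and beta subunits of PA28, an interferon-inducible activator that opens the proteasome. The brightest Psme1 probe read 11.97, 11.71 and 11.96 untreated and 11.37, 11.18 and 11.52 with withaferin A. All withaferin A arrays lay below all untreated arrays, also at the other Psme1 probe. The changes, -0.52 (SE 0.16, adjusted p = 0.0898) and -0.50 (SE 0.17, adjusted p = 0.105), did not pass. Psme2 read 9.23, 8.99 and 9.03 untreated and 9.04, 8.92 and 9.13 with withaferin A, a change of -0.06 (SE 0.15, adjusted p = 0.856) with an interval from -0.40 to 0.28. Nlrc5, the class I transactivator, read 8.06, 8.52 and 8.12 untreated and 7.74, 7.61 and 7.57 with withaferin A. Its groups did not overlap, and the change of -0.60 (SE 0.17) missed the threshold (adjusted p = 0.0696).

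**Figure D3:**
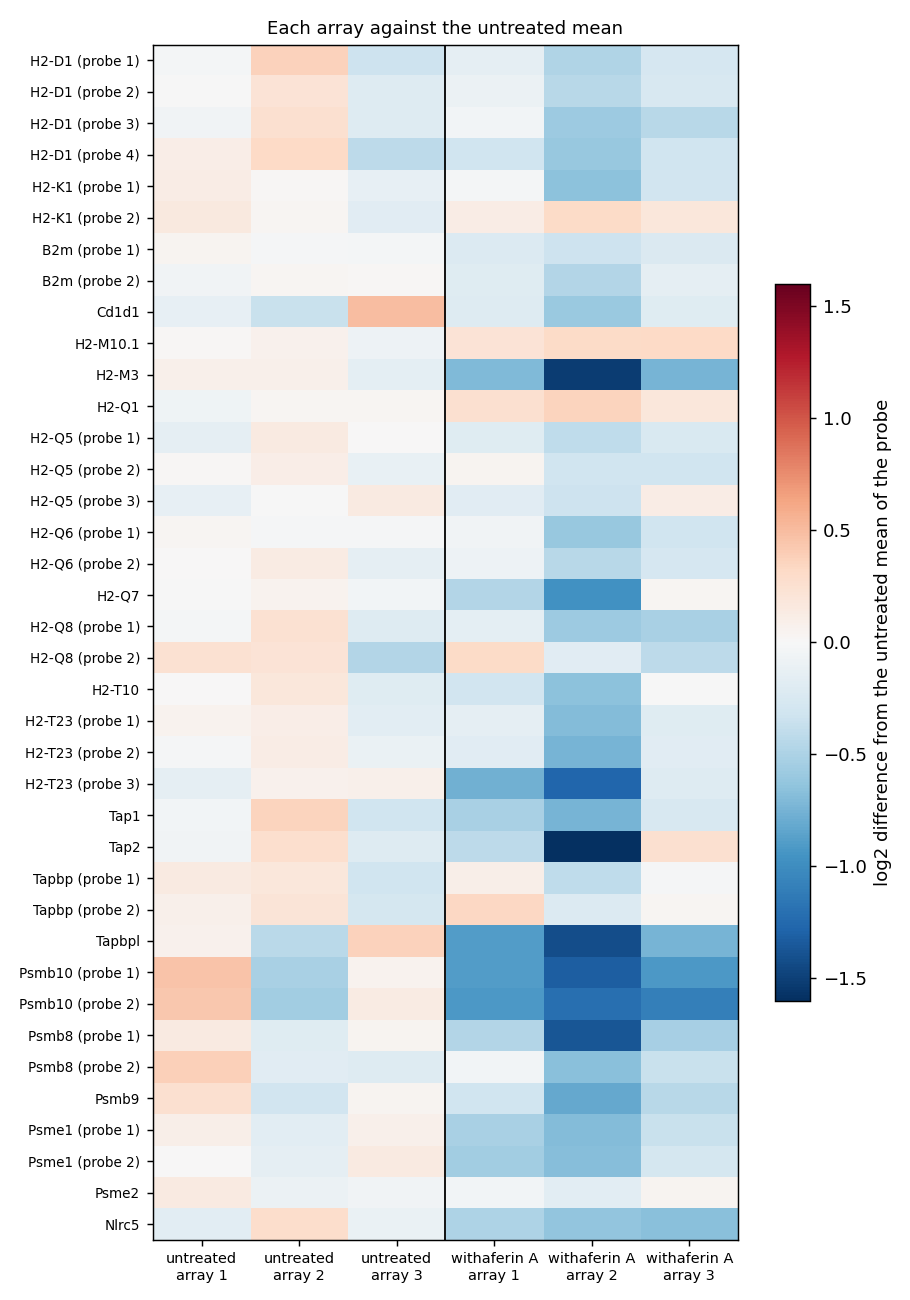
Colour map of the log2 difference of each array (columns) from the untreated mean of the same probe (rows, 38 tested probes), blue for lower and red for higher. The withaferin A columns are mostly blue, and the column of withaferin A array 2 is the darkest, with its lowest entries at Tap2, H2-M3, Tapbpl, Psmb8 and Psmb10.

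The immunoproteasome subunits were set against the constitutive subunits they replace by taking the log2 difference of the 2 probes within each array, centred on its untreated mean. These comparisons, with that of Psme1 and Psme2, were chosen after the values had been seen, and Psmb9 was left out because it passed the detection filter through the untreated arrays. Psmb10 against Psmb7 stood at 0.53, -0.36 and -0.16 untreated and at -0.69, -1.30 and -0.76 with withaferin A, a shift of -0.92. Psmb8 against Psmb5 shifted by -0.96, from between -0.20 and 0.13 untreated to -0.84, -1.78 and -0.25. In both the withaferin A arrays lay below the untreated arrays, and so they did for Psme1 against Psme2, with a shift of -0.46. The two-sided exact permutation p was 0.1 for each of the 3 (adjusted p = 0.1), which is the smallest that 3 against 3 arrays can give, so none could reach the threshold. By themselves, Psmb5, Psmb6 and Psmb7 had changes of 0.17 (adjusted p = 0.703), 0.29 (adjusted p = 0.299) and -0.12 (adjusted p = 0.682). These values and the differences used the brightest probe of each gene. The other Psmb7 probes had changes of 0.013, 0.092 and 0.14, opposite in sign, and the other Psmb6 probe 0.34. The dimmer Psmb8 probe changed by -0.36, against -0.79 at the probe used.

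**Figure D4:**
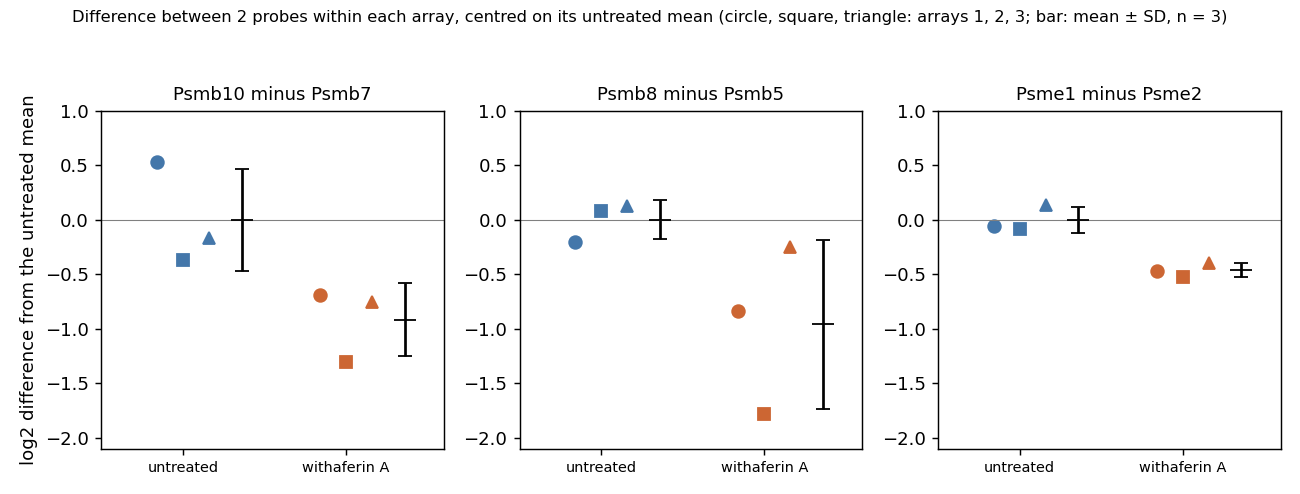
Log2 difference between the probes of 2 genes within each array, centred on the untreated mean, for untreated (blue) and withaferin A (orange) arrays with mean ± SD (n = 3). All withaferin A points lie below all untreated points in each of the 3 panels, with mean shifts of -0.92, -0.96 and -0.46.

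A wider list of the pathway held 51 genes outside the membership rule, of which 45 had a probe with a single symbol and 37 were tested. Of these, 1 was lower (background 4.02% of 9756 genes), 0 were higher (background 2.81%), and 19 had negative changes, with a median of -0.10 (all genes 0.0054). The gene called was Jak2, a kinase of the interferon gamma receptor. It read 9.99, 9.71 and 10.50 untreated and 8.93, 8.77 and 9.40 with withaferin A. The groups did not overlap, and the change was -1.03 (SE 0.24, 2.04-fold lower, adjusted p = 0.0375). The other tested Jak2 probe had a change of -1.06 (adjusted p = 0.0615). Jak2 had 4 probes in all, and the rest did not pass the detection filter. The Jak2 call was lost on leaving out untreated array 1 or 3, or withaferin A array 1 or 2 (adjusted p = 0.0764 to 0.135), without background correction (adjusted p = 0.0515) and with every probe tested (adjusted p = 0.142). Irf1, an interferon-induced transcription factor of class I genes, read 12.28, 12.10 and 12.11 untreated and 11.59, 10.99 and 11.67 with withaferin A. Its change was -0.75 (SE 0.20, adjusted p = 0.0589), and its other 4 probes had changes from -0.82 to -0.57, the dimmest of them called (adjusted p = 0.0419). Ifngr1, a chain of the interferon gamma receptor, had a change of -0.59 (SE 0.16, adjusted p = 0.0648). In the group of transcription factors and interferon signalling genes 1 of 18, Jak2, was called, and 14 had negative changes (49.3% of all genes), with a median of -0.25. The loading chaperones (4 tested, median 0.10), the other peptidases and translocon genes (7 tested, median 0.01), the genes of class I turnover (2 tested, median 0.22) and the constitutive catalytic subunits and activators (6 tested, median 0.30) had 0 calls.

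**Figure D5:**
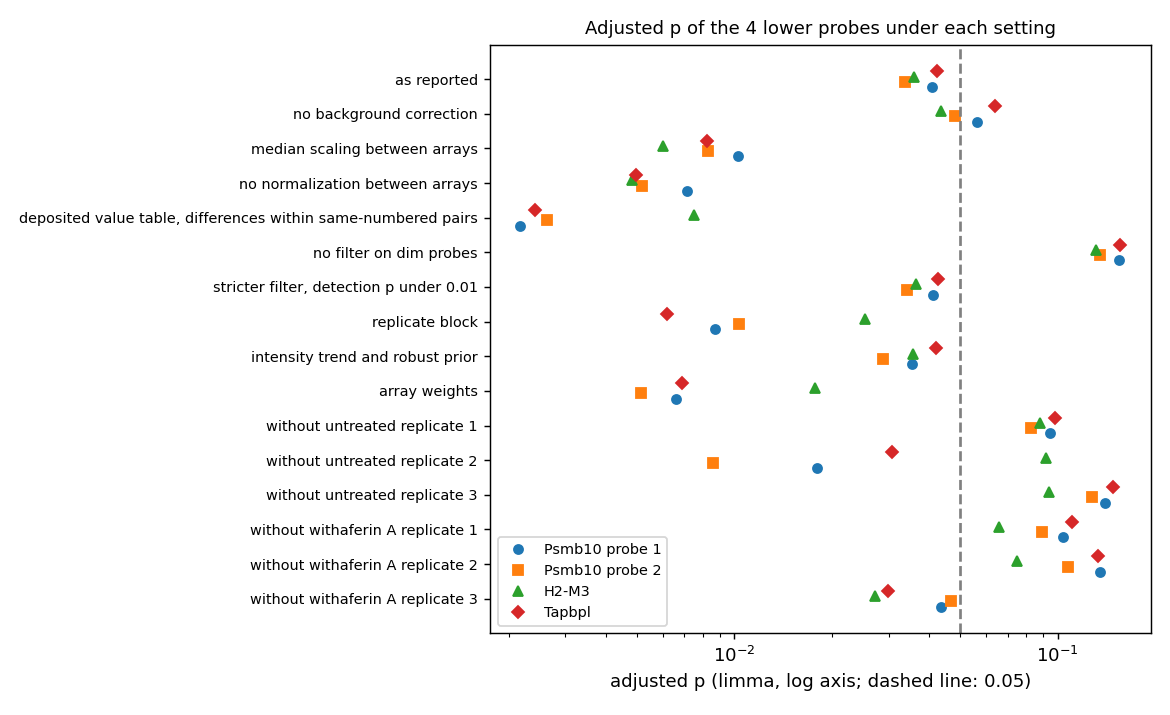
Adjusted p (limma, log axis) of the 4 probes called lower, for each way of processing and with each array left out; the dashed line marks 0.05. Points to the right of the line are lost calls, and all 4 probes lie there with no filter on dim probes and without untreated replicates 1 or 3 or withaferin A replicates 1 or 2.

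As background on the arrays, median raw intensity at tested probes was 218.5 to 235.9 on untreated and 191.8 to 202 on withaferin A arrays, and 18275 to 20104 probes per array were detected. Markers of cell types were read at the brightest probe of each gene. Of the epithelial markers, Krt8, Krt18, Krt7, Cdh1 and Cldn7 were detected on all 6 arrays, Krt19 on 4 and Epcam on none. Of the mesenchymal markers, Vim and Pdgfra were detected on all 6, Col1a2 on 1, and Col1a1, Col3a1, Pdgfrb and Thy1 on none. No epithelial marker was called (Krt18 -0.70, adjusted p = 0.0674), whereas Pdgfra, a growth factor receptor, fell (-1.10, adjusted p = 0.0327). Of 10 leukocyte and antigen-presenting cell markers on the array, 8 were on no array above background, among them Ptprc and the MHC class II genes H2-Aa, H2-Ab1 and H2-Eb1. The mean log2 value over those 10 was 4.65 to 4.69 on untreated and 4.63 to 4.64 on withaferin A arrays. Cd74 was detected on 5 arrays (change -0.44, adjusted p = 0.248) and Csf1r on 3, and the part of marker genes in the member changes was not tested. In these bulk RNA samples fewer cells of a kind and less RNA per cell cannot be told apart.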

How the data were processed

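Biotin-labelled total RNA of 6 samples was hybridised, per the labels' protocols. The authors deposited probe intensity values, unnormalized per the file's own name and with background left in, to judge from the values, and a detection score read as 1 minus the detection p that its header names. The authors also deposited a table of log2 values, found to be centred on the mean of same-numbered arrays (columns mirror each other within 1e-06). Column medians of that table were -0.000566, -0.00265 and -0.00108 (untreated) and 0.000566, 0.00265 and 0.00108 (withaferin A). Its differences within same-numbered arrays correlated at 0.963, 0.966 and 0.961 with those used here, which sets the direction. Raw log2 differences had slopes of 1.01, 1.11 and 1.05 on the deposited differences, which sets the scale. The normalization of that table is unknown. No source used here names the scanner software.

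Background was corrected by normexp (offset 16), with the negative controls' mean and SD estimated through the detection p, quantile-normalized and taken to log2 (limma 3.58.1, R 4.3.3). The platform annotation gave 34885 probes 1 symbol and 18 several, and 10378 were not listed. Groups, mapped by sample titles, were compared with lmFit and eBayes (two-sided, Benjamini-Hochberg over 19077 probes). The procedure was also run on simulated data with independent noise at each probe. That run cannot show how the calls behave where probes share a deviation of an array. A gene was represented by its brightest tested probe (9756 genes); probes are numbered by brightness. The members, the lists and the rule for named genes were chosen with earlier results of these data known. That rule gave values on every array to H2-K1, B2m, Psmb10, called members and the member of smallest p in each role, and named called genes and the 3 of smallest p in the wider list. Alternatives covered background correction, normalization, the filter, the replicate block and array weights. They also covered an intensity trend with a robust prior, the mean of a gene's probes and each array left out. The deposited table was fitted as differences within same-numbered arrays. The number of arrays limits the precision. No slide or scan batch is given in the labels.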

Additional observations from a re-analysis of the deposited data

How the results depend on the processing

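Of the 38 tested member probes, 4 were called lower. That count was 2 without background correction, 9 with median scaling, 10 without normalization between arrays, 12 in the deposited value table, 0 with no filter on dim probes and 9 with array weights, and 0 to 5 with 1 array left out (5 without withaferin A array 3, 3 without untreated array 2 and 0 for each of the other arrays). The count with no filter comes from the same changes adjusted over 45281 probes. Counts in the deposited value table come from a paired fit, of differences within same-numbered arrays, unlike the reported fit. The causes of the other shifts were not tested. All member calls under these settings were of lower probes. In the reported fit, the replicate number shared by both groups was not taken as a pairing, since the labels give it no meaning. Deviations of same-numbered arrays correlated at 0.27, -0.04 and 0.32, and those of arrays with different numbers at -0.39 to 0.27. The authors' deposited values are centred within same-numbered arrays, so pairing is unsettled. With the replicate block 5 member probes were called, the added one being the brightest Psmb8 probe, and over all probes calls went from 1125 to 1753. The median change over member genes, -0.34, was -0.58 with median scaling and -0.62 without normalization between arrays, where the median of all probes itself shifted to -0.17 and -0.22, and calls over all probes went from 487 higher and 638 lower to 296 and 2190 and to 276 and 2683. It was -0.47 to -0.22 with 1 array left out. Over all probes 579 were called with no filter, 3972 with array weights, 4568 in the deposited value table, and 370 to 1533 with 1 array left out.

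In the wider pathway list 1 of 37 tested genes was called. That count was 0 without background correction or with no filter, 6 with median scaling, 7 without normalization, 11 in the deposited value table (7 lower, 4 higher), 3 with the replicate block, 2 with an intensity trend and robust prior, 6 with array weights (4 lower, 2 higher) and 0 to 4 with 1 array left out. In each setting with all arrays that raised the count, calls over all 19077 tested probes rose as well. They went from 1125 to 1163 with the intensity trend and robust prior, and the others are given above. A larger count is thus not by itself a trait of the list. Signs turned at 5 member probes, whose reported changes lay between -0.20 and 0.05. With array weights the second H2-Q5 probe stood at 0.0091, the dimmer H2-Q8 probe at 0.22 and the brighter Tapbp probe at 0.045. The dimmer Tapbp probe stood at -0.20 with median scaling, -0.24 without normalization and -0.090 to 0.18 with 1 array left out, the brighter at -0.27 to 0.042, the dimmer H2-Q8 probe at -0.33 to 0.066 and Psme2 at -0.11 to 0.017.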
